A study of Mus musculus with 44 samples.

Results

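Libraries of D2 nuclei were compared with libraries of D1 nuclei from mouse nucleus accumbens, with every library carrying the same vector for retinoid X receptor alpha (RXRa). The members are all RXRa libraries of the sorted-nuclei table whose labels give both a population and a vector, and they number 16 of the 44 samples of the series, 8 of D1 and 8 of D2, each with 4 females and 4 males. All 16 received AAV9-CAG-DIO-EGFP-P2A-RXRa by infusion into the nucleus accumbens, an adeno-associated virus in which the general CAG promoter drives EGFP and RXRa after Cre recombinase has turned the insert around. One further D2 female library was left out because its title and its vector label name different vectors. The same comparison was made in 19 libraries with the control vector AAV9-CAG-DIO-EGFP, which are 5 D1 female, 5 D1 male, 4 D2 female and 5 D2 male libraries. The labels give the populations as D1 and D2 and do not give the Cre line, the strain, the age or whether each library is a separate animal, so p-values measure the spread between these libraries.

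Most neurons of the striatum, the nucleus accumbens included, are GABAergic spiny projection neurons of 2 kinds. D1 neurons express the dopamine receptor Drd1, which couples to stimulatory G proteins and raises cAMP, together with the peptide precursors of dynorphin (Pdyn) and substance P (Tac1). D2 neurons express the receptor Drd2, which couples to inhibitory G proteins, together with proenkephalin (Penk), the adenosine receptor Adora2a and the orphan receptor Gpr6. RXRa is a nuclear receptor that binds DNA as a partner of retinoic acid, thyroid hormone and other nuclear receptors.

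Under RXRa, 39 of 41715 genes tested differed between D2 and D1, which is 0.0935%, with 24 higher in D2 (0.0575%) and 15 higher in D1 (0.036%). A gene is said to have passed, or to be higher or lower, where edgeR's quasi-likelihood test with sex as a block gave a Benjamini-Hochberg adjusted p under 0.05 over all genes tested. Fold changes are log2 values, positive where D2 was higher, and levels are CPM, counts scaled to a common effective library size of 1e6. By fold change, the genes higher in D2 were led by Drd2, Penk, Gpr6, ENSMUSG00000118401, Ankk1 and Adora2a, and those higher in D1 by the pseudogene Gm18974, Pdyn, Sfxn1 and the noncoding RNA E130119H09Rik. Of the 39, 29 are annotated as protein-coding, 9 as another type and 1, ENSMUSG00000118401, is not in the annotation. A log2 fold change of at least 1 in either direction was seen for 27. For 27 of the 39, D2 and D1 libraries did not overlap within either sex, which held for 0.209% of all genes tested. At an unadjusted p under 0.05 there were 8541 genes, 20.5% of those tested, of which 6518 had positive and 2023 negative fold changes.

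The libraries held 13769323 to 26808033 counts. In a principal component analysis the first component (28.5% of the variance) was lowest in D2 male 3 and D2 male 5, followed by D2 female 4 and D2 female 2. The remaining D2 libraries lay within the range of the D1 libraries, -29.79 to 42.97. They were D2 male 1 (37.54), D2 female 3 (27.8), D2 female 5 (20.76) and D2 male 2 (-16.91). The second component (26.6%) separated the sexes. The scaling factor of the trimmed mean of M values (TMM) was under 0.9 in D2 female 4 (0.786), D2 male 5 (0.851) and D2 male 3 (0.883) and between 0.942 and 1.13 in the other 13 libraries. Without D2 male 1 the test passed 5504 genes (13%), of which 4776 were higher in D2, and all 39 were among them. Without the 3 libraries of low scaling factor it passed 40 (0.0917%), of which 30 were shared with the 39. The balance of directions then turned, with 16 higher in D2 and 24 higher in D1, and at an unadjusted p under 0.05 there were 1771 genes, 720 with positive and 1051 with negative fold changes.

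**Figure D1:**
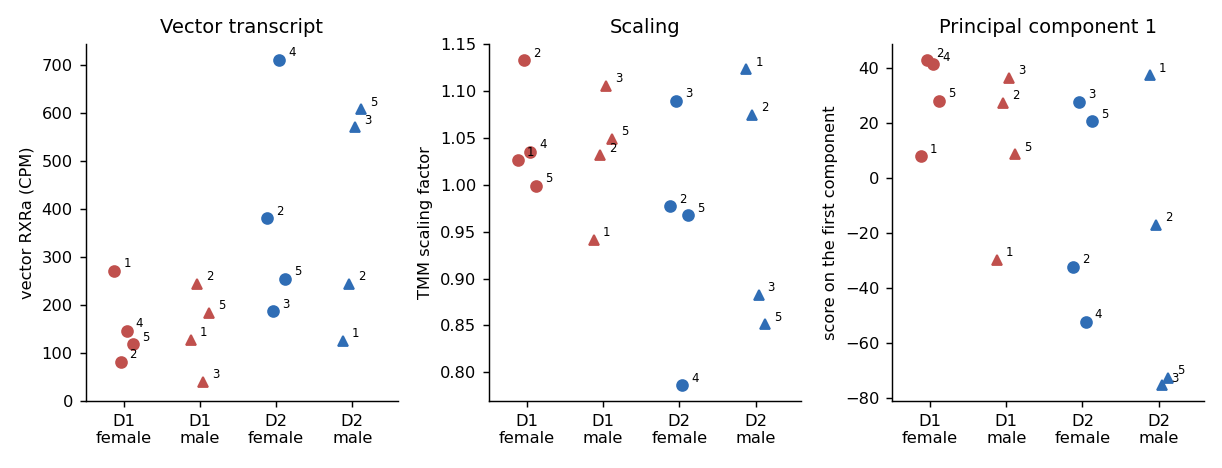
Vector RXRa transcript in CPM, TMM scaling factor and score on the first principal component for each of the 16 RXRa libraries, by population and sex, with the replicate number beside each point. D2 female 4, D2 male 3 and D2 male 5 have the most vector transcript, the lowest factors and the 3 lowest scores, and D2 male 1 has the least vector transcript of the D2 libraries.

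The vector transcript was measured first, as a check of the labels. Vector RXRa, whose codons differ from the mouse gene and which has its own entry in the table, ran from 41.1 to 271 CPM in D1 with a median of 137, and from 126.5 to 710 CPM in D2 with a median of 318. The groups overlapped, and the D2 libraries were higher by 1.31 in mean log2(CPM + 1) (exact two-sided permutation test within sex, p = 0.0143, Benjamini-Hochberg adjusted 0.0214 over 3 tests, n = 8 and 8). The difference was 1.26 in females and 1.37 in males. GFP of the same vector differed by 1.28 (exact p = 0.0114, adjusted 0.0214, n = 8 and 8). Vector level thus differed along with population, and its part in the D2 against D1 differences was not tested. The 19 EGFP libraries held at most 17 counts of vector RXRa, against 1216 or more in each of the 16. The mouse gene itself, Rxra, ran from 31.2 to 46.3 CPM in D1 (median 40.2) and from 25.8 to 38.97 in D2 (median 34.4). The Rxra levels overlapped and the gene did not pass (log2 fold change -0.21, SE 0.10, adjusted p = 0.246).

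The defining markers followed the labels, with 1 exception among the 7. Drd2 ran from 57.6 to 102 CPM in the D1 libraries (median 67.9) and from 580 to 1778 in the D2 libraries (median 1030). Every D2 library was above every D1 library (log2 fold change 3.91, SE 0.23, adjusted p = 5.1e-09). Penk had 50.2 to 204.5 CPM in D1 (median 70.8) and 173.7 to 1042 in D2 (median 617.5). The lowest D2 library for Penk, D2 male 1, was below the highest D1 library, D1 male 1, and the gene passed over all 16 (2.69, SE 0.37, adjusted p = 0.00136). Adora2a was at 13.7 to 24.8 CPM in D1 (median 18.5) and 35.6 to 122 in D2 (median 90.3), without overlap (2.19, SE 0.22, adjusted p = 2.33e-05). Gpr6, a receptor with constitutive activity, was at 3.41 to 11.3 CPM in D1 (median 4.98) and 10.6 to 68.7 in D2 (median 35.4), and only D2 male 1 lay below a D1 library, D1 male 1 (2.61, SE 0.33, adjusted p = 0.000697).

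On the D1 side, Drd1 ran from 39.8 to 80.7 CPM in D1 (median 52.9) and from 9.01 to 37.3 in D2 (median 24.6). The groups did not overlap, yet the D2 libraries spread over a factor of 4.13 and the gene passed narrowly (log2 fold change -1.37, SE 0.25, adjusted p = 0.0318). In 7 of the 16 fits that left out 1 library Drd1 no longer passed, with an adjusted p of up to 0.0838, without D1 female 1. Pdyn was at 23.2 to 62.7 CPM in D1 (median 42.1) and 8.40 to 21.5 in D2 (median 13.04), without overlap (-1.62, SE 0.20, adjusted p = 0.000346). Tac1 was at 28.6 to 71.7 CPM in D1 (median 42.1) and 12.2 to 64.0 in D2 (median 35.3). The Tac1 levels overlapped widely and the gene did not pass (-0.43, SE 0.25, adjusted p = 0.342). For both Drd1 and Tac1 the lowest D2 library was D2 male 1. Counts of Drd1 were present in every D2 library and counts of Drd2 in every D1 library. Gene bodies silent in bulk tissue held a background of 0.36 to 0.51 CPM per kb in D1 libraries. In D2 libraries this background was 0.39 to 0.50. Drd2 spans 49340627 to 49408177 on chromosome 9, so part of its level in D1 can be such background. In bulk RNA of sorted nuclei, a smaller share of nuclei of a type, less RNA per nucleus and background cannot be told apart.

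**Figure D2:**
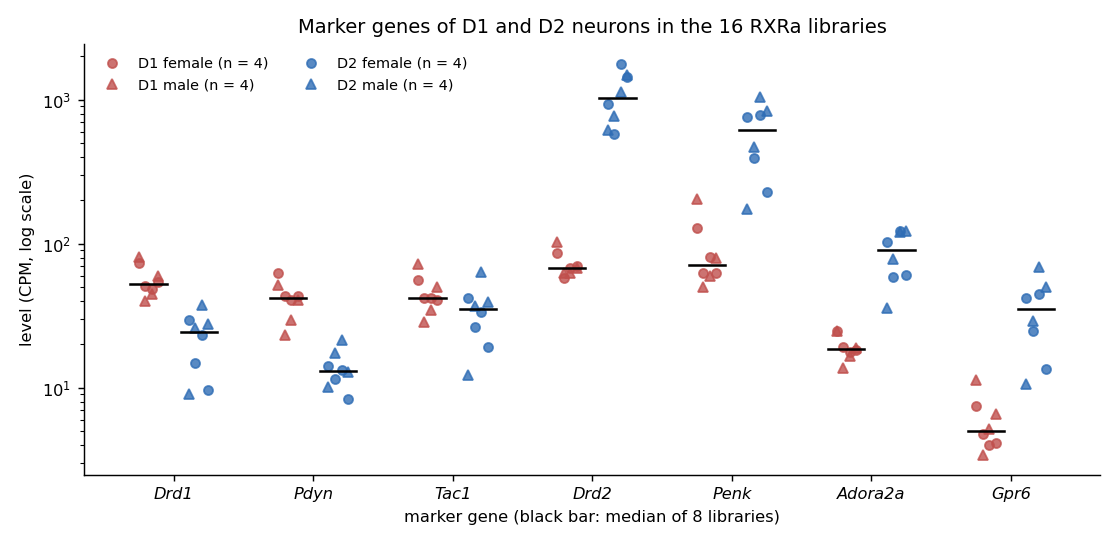
CPM on a log scale of the 7 marker genes in each RXRa library, D1 in red and D2 in blue, circles for females and triangles for males, with a black bar at the median of 8 libraries. Drd2 is the most widely separated marker, and Tac1 has overlapping D1 and D2 libraries.

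The promoters of 4 of these markers are shown because these genes define the 2 populations and RXRa acts on DNA. They are RefSeq windows on GRCm38.p6, from 250 bases before to 50 after a gene's start, and capitals mark matches to the motifs searched on both strands.
Drd2, chr9:49340153-49340452, plus strand: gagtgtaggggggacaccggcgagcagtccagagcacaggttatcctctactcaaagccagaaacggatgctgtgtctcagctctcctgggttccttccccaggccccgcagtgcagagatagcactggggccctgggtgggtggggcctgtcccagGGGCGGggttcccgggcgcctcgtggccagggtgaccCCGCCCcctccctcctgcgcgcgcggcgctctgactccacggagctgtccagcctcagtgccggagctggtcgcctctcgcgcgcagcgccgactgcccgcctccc
Gpr6, chr10:41072241-41072540, minus strand: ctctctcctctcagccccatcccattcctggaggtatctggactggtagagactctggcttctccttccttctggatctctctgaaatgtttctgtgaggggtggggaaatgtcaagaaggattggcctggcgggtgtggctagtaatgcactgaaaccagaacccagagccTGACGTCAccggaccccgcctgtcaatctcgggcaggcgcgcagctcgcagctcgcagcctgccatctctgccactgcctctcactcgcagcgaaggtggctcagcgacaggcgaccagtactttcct
Drd1, chr13:54055609-54055908, minus strand: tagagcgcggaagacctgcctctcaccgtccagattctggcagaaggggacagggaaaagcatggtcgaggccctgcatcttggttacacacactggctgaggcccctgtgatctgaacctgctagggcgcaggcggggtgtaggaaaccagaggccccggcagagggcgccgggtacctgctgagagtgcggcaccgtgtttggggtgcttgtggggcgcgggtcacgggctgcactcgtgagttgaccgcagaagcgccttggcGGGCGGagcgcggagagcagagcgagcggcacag
Pdyn, chr2:129699889-129700188, minus strand: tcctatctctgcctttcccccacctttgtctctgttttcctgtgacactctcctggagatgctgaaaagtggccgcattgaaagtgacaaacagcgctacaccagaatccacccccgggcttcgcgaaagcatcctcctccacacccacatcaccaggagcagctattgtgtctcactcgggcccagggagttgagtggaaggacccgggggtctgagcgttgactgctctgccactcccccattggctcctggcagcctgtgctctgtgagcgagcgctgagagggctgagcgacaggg
In capitals are the cAMP response element TGACGTCA in Gpr6, to which CREB family factors are known to bind, and the GC box GGGCGG, read on either strand, in Drd2 and Drd1. Pdyn held no match in this window. The GC box was found in windows of 11 of the 15 genes matched among those higher in D2, of 3 of the 10 matched among those higher in D1, and in 35.7% of the 32851 windows in the table. Some genes have more than 1 window, and the windows of Arpp19 and of Sntg2 overlap. TGACGTCA was found in 1 of the 15, in 0 of the 10 and in 1.79% of all windows. The nuclear receptor motif AGGTCA, the core of RXR binding sites, was found in 2 of the 15 (B3gat1 and 1 site in Arpp19), in 0 of the 10 and in 16.3% of all windows. A direct repeat of it with 1 base between the copies was in no window of a gene that passed and in 0.0396% of all.

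Around both dopamine receptor genes, neighbouring genes differed in the same direction as the receptor. On chromosome 13, a stretch of 253.2 kb from 53888627 to 54141802 (GRCm38) held 7 tested genes, of which 6 passed, all higher in D1 with log2 fold changes from -1.37 to -1.70. They are Gm18974, E130119H09Rik, Gm34557, Gm48550, Drd1 and Sfxn1, a mitochondrial serine transporter. The seventh, Gm18473, had -1.44 with an adjusted p of 0.0544. The next gene on that side, Hrh2, a histamine receptor 136.4 kb from Drd1, had -0.09 (adjusted p = 0.518). On chromosome 9, a stretch of 235.7 kb from 49250531 to 49486225 held 4 tested genes and all 4 passed. They are Gm4894 (1.03), Drd2 (3.91), the kinase gene Ankk1 (2.20) and Ttc12 (1.85), which encodes a protein needed for cilia. Ncam1, a cell adhesion molecule 94 kb from Drd2, had 0.19 and Tmprss5, on the other side, -0.06, and neither passed. The ends of both stretches were set after the fold changes were seen, so the counts within them follow from that choice. Within 500 kb, the receptors included, 6 of 20 tested genes passed around Drd1 and 4 of 14 around Drd2, against 0.0935% of all genes tested. The vector needs Cre and the Cre line of each population is not given. Neuron type and mouse line therefore cannot be told apart in these stretches, and the cause of the differences was not tested.

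**Figure D3:**
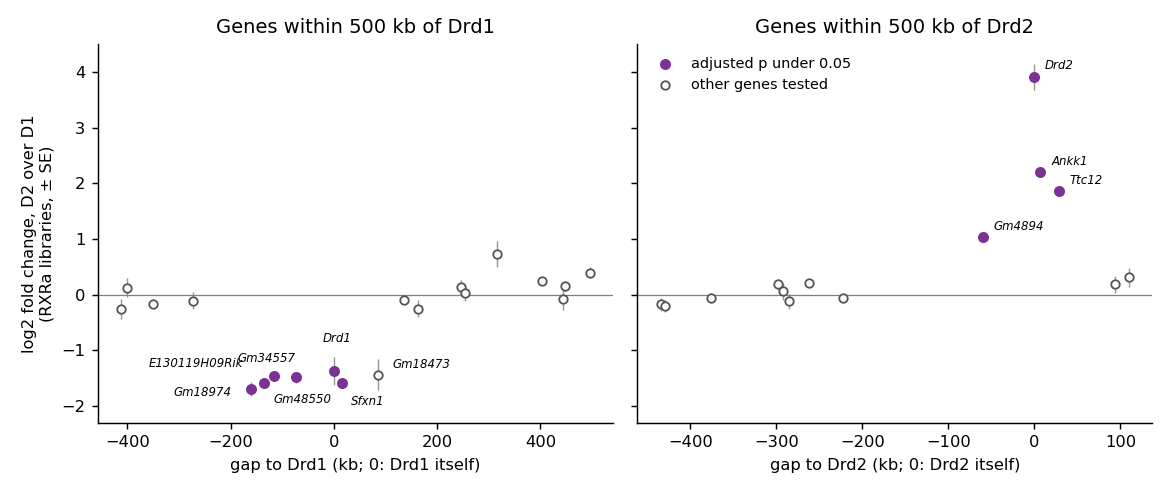
Log2 fold change of D2 over D1 in the RXRa libraries, with SE, for every tested gene within 500 kb of Drd1 (left) and Drd2 (right), against the gap in kb between the genes. Filled points passed the test, Gm18473 beside Sfxn1 had a like value without passing, and the next genes on either side lie near 0.

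The levels of the 8 neighbours that passed spread over smaller factors than those of the receptors. Sfxn1 ran from 73.0 to 94.5 CPM in D1 (median 80.2) and from 22.4 to 31.5 in D2 (median 26.6; adjusted p = 3.95e-10). Ttc12 ran from 27.4 to 35.7 CPM in D1 (median 33.6) and from 101.9 to 129 in D2 (median 121.5; adjusted p = 5.34e-12, the smallest of all genes). Gm34557 ran from 28.1 to 31.7 CPM in D1 (median 29.0) and from 8.81 to 12.2 in D2 (median 10.5; adjusted p = 2.8e-10). None of the 3 had overlapping groups. Over the 8 neighbours, the highest D2 library was 1.21 to 2.11 times the lowest, with a median of 1.398. The ratio was 3.06 for Drd2 and 4.13 for Drd1. It was 1.503 to 6.51, with a median of 2.74, for the 20 other genes higher in D2, and 1.15 to 3.49, with a median of 1.77, for the 9 other genes higher in D1. Some of those 9 varied as little as the neighbours, such as Sntg2 (1.15), Cntnap3 (1.26) and Onecut2 (1.28). D2 male 1 was the lowest D2 library for 16 of those 20, for 1 of the 9 and for none of the 8 neighbours. In all 16 fits without 1 library and under every other setting tried, 11 genes passed, and these were the 8 neighbours, Drd2, Adora2a and Ndnf.

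**Figure D4:**
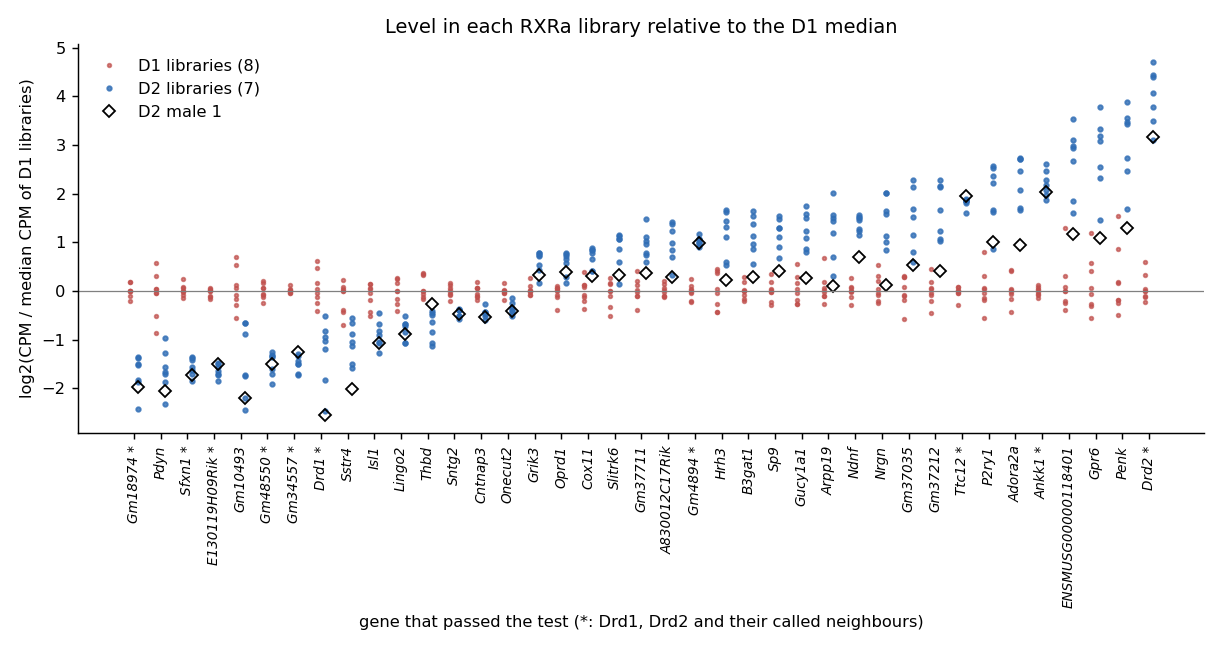
Log2 of each library's CPM over the median of the 8 D1 libraries, for the 39 genes that passed, D1 in red, D2 in blue and D2 male 1 as an open diamond. For Drd2's and Drd1's neighbours (starred) the D2 libraries lie close together, and for most other genes higher in D2 the diamond is lowest.

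Noncoding transcripts that passed mostly lay close to other genes that passed. Of the 38 genes with an annotated position, 18 lay within 100 kb of another that passed, 7 of the 9 noncoding ones among them. These 7 include Gm18974, E130119H09Rik, Gm34557 and Gm48550 of the stretch around Drd1. The share of all tested genes that lie this close to a gene that passed was not measured. A830012C17Rik (0.93, adjusted p = 0.00593) overlaps Penk and Gm37035 (1.41, adjusted p = 0.027) overlaps P2ry1, each on the opposite strand, and Gm37711 (0.89, adjusted p = 0.00717) ends 1.363 kb from Oprd1. Whether the counts used strand is not given in the sources used here, so reads of each overlapping pair cannot be told apart. Gm10493, a processed pseudogene, was higher in D1 (-1.51, adjusted p = 0.0168), and pseudogenes can share reads with their parent genes. Gm37212, an unclassified transcript with no other called gene on its chromosome, was higher in D2 (1.58, adjusted p = 0.00481). ENSMUSG00000118401, listed by identifier, is not in the annotation, so whether it is noncoding is not known. It ran from 1.75 to 5.62 CPM in D1 and from 5.13 to 26.6 in D2 (2.49, adjusted p = 0.000353).

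Several receptors were among the genes that passed. Of 28 tested G protein-coupled receptors on a list of receptors of striatal transmitters, 5 were higher in D2 and 1, Drd1, in D1. Over all genes tested, 0.0935% passed. Drd1, Drd2, Gpr6 and Adora2a are also defining markers of the populations. The list's median log2 fold change was 0.17, against -4e-04 over all genes. Without the 3 libraries of low scaling factor the median was 2e-04, 14 of 28 were positive and 3 passed higher in D2 and 1 in D1. Without D2 male 1, 10 passed higher in D2 and 2 in D1, where 13% of all genes passed. The 5 higher in D2 over all 16 libraries were Drd2, Gpr6, Adora2a, Hrh3 and Oprd1. Hrh3 is a histamine receptor that couples to inhibitory G proteins, and Oprd1 the delta opioid receptor to which enkephalins bind. Oprd1 ran from 15.5 to 21.9 CPM in D1 (median 20.3) and from 22.7 to 34.7 in D2 (median 31.0), without overlap (0.60, SE 0.10, adjusted p = 0.00917). Hrh3 ran from 2.72 to 5.05 CPM in D1 (median 3.69) and from 4.30 to 11.6 in D2 (median 8.54), with overlap (1.09, SE 0.20, adjusted p = 0.043). Hrh3 lost its call in 12 of the 16 fits without 1 library, with an adjusted p of up to 0.13. The purinergic receptor P2ry1, not on that list, was at 2.74 to 6.96 CPM in D1 (median 4.00) and 7.24 to 23.8 in D2 (median 15.7; 1.89, SE 0.24, adjusted p = 0.00072). In D1, the somatostatin receptor Sstr4, also not on that list, was higher (-1.01, adjusted p = 0.0347). Thbd, thrombomodulin, lies 7.699 kb from it (-0.73, adjusted p = 0.0495). Chrm4, a muscarinic receptor, had -0.56 and did not pass (adjusted p = 0.277).

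Transcription factors known from the 2 neuron types differed in opposite directions. Sp9, a zinc finger factor needed for the development of D2 neurons, ran from 4.88 to 7.58 CPM in D1 (median 5.98) and from 7.97 to 17.5 in D2 (median 13.7). All D2 libraries were above all D1 libraries (1.11, SE 0.15, adjusted p = 0.00082). Isl1, a homeodomain factor of developing D1 neurons, ran from 8.86 to 13.97 CPM in D1 (median 12.6) and from 5.23 to 9.24 in D2 (median 6.40), with D2 male 3 above D1 male 2 (-0.82, SE 0.12, adjusted p = 0.00372). Onecut2, another homeodomain factor, was higher in D1 by the smallest change of the 39 (-0.35, adjusted p = 0.0342). On the list of 22 striatal transcription factors, 1 passed in each direction. Without D2 male 1, 6 were higher in D2 and 3 in D1, where 13% of all genes passed. Ebf1 (-0.30, adjusted p = 0.12), a factor of D1 neurons, did not pass over all 16 libraries.

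Among the remaining coding genes, those higher in D2 included Nrgn, the calmodulin-binding protein neurogranin (1.33, adjusted p = 0.00789), Gucy1a1, a subunit of the nitric oxide receptor guanylyl cyclase (1.15, adjusted p = 0.00593), and Arpp19, an inhibitor of protein phosphatase 2A (1.15, adjusted p = 0.0495). For these 3 genes D2 male 1 lay below the highest D1 library, and for Arpp19 D2 female 5 did too. Ndnf, a secreted neurotrophic protein, did not overlap, at 15.1 to 22.4 CPM in D1 (median 18.5) and 29.8 to 54.5 in D2 (median 47.7; 1.31, SE 0.11, adjusted p = 1.22e-06). B3gat1, which makes the HNK-1 glycan (1.10, adjusted p = 0.00306), Slitrk6, a synaptic adhesion protein (0.85, adjusted p = 0.0187), the kainate receptor subunit Grik3 (0.55, adjusted p = 0.0183) and Cox11, a cytochrome oxidase assembly factor (0.64, adjusted p = 0.0368), were also higher in D2. Higher in D1 were Lingo2, a leucine-rich repeat adhesion protein at 855 to 1367 CPM in D1 and 541 to 795 in D2 (-0.79, SE 0.11, adjusted p = 0.00259), the syntrophin Sntg2 (-0.46, adjusted p = 0.00348) and Cntnap3, a contactin-associated protein (-0.45, adjusted p = 0.00422). Lingo2 spans 35706647 to 36951747 on chromosome 4, so background over its long gene body can make up part of its level in both populations. Leaving out 1 library ended the call in 12 of 16 fits for Arpp19 and Cox11, in 14 for Thbd, 10 for Onecut2, 8 for Sstr4, 7 for Gm37035, 6 for Grik3, 4 for Slitrk6, and 1 each for Oprd1 and Gm10493. Without the 3 libraries of low scaling factor, Nrgn, Oprd1, Grik3, Slitrk6, Hrh3, Arpp19, Cox11, Thbd and Gm37035 did not pass, and Oprd1 and Cox11 did not pass with library totals.

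Several lists leaned towards D2 without passing, and the lean moved with the 3 D2 libraries of low scaling factor. Of 13 genes shared by both kinds of spiny neuron, none passed, all 13 had positive fold changes and the median was 0.43. Ppp1r1b, the DARPP-32 inhibitor of protein phosphatase 1, had 1.02 (adjusted p = 0.123) and Rasd2, a striatal small GTPase, 1.04 (adjusted p = 0.0885). Rasd2 ran from 16.1 to 29.9 CPM in D1 (median 21.3) and from 17.8 to 68.6 in D2 (median 44.2), where D2 male 3, D2 male 5 and D2 female 4 were highest and D2 male 1 lowest. Without those 3 libraries the list's median was 0.06 and 8 of 13 were positive, and without D2 male 1 it was 0.53 and 7 of 13 passed, where 13% of all genes did. Of 45 genes of cAMP signalling, 1 passed (Arpp19), 39 were positive and the median was 0.34, which became 0.05 without the 3 libraries, with 24 positive and none passing. It was 0.40 without D2 male 1, and 19 of the 45 were higher in D2 and 1 in D1. Scaling by library totals lowered the median of all genes to -0.10, and then 12 of the 13 shared genes and 32 of the 45 cAMP genes were positive.

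The mitochondrially encoded genes had positive fold changes as well. Of 13, 9 were tested, none passed, all 9 were positive (0.67 to 1.10) and the median was 0.91, against 0.72 over 11 tested without the 3 libraries. The summed level of the 13 was 87.7 to 195 CPM in D1 and 88.7 to 468 in D2. Their 2 highest libraries were D2 female 2 and D2 male 3, with 112.9 and 102 CPM of mt-Nd5, a subunit of respiratory complex I, against 45.1 in D2 female 4 and 52 in D1 male 1. Without D2 male 1, 7 of 11 passed, where 13% of all genes did. These transcripts are made outside the nucleus, and their part in the results was not tested. Markers of 8 other cell groups (astrocytes, oligodendrocytes, their precursors, microglia, vascular cells, cortical excitatory neurons, cholinergic and GABA interneurons) passed in 0 of 56 cases. Without D2 male 1 they passed in 7 of 56 cases, near the 13% of all genes that then passed. All 56 had counts in every library, and none was at 0. Gene bodies silent in bulk tissue held background reads too, so these counts alone do not show that such cells were sorted. Summed astrocyte markers had 223 to 251 CPM in D1 and 216 to 342 in D2, and summed microglial markers 146.5 to 166.5 and 144 to 168.4. The background of reads over gene bodies silent in bulk tissue did not differ detectably (log2 difference -0.01, exact two-sided permutation p = 0.923, n = 8 and 8).

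Retinoid genes and ion channels held few or no differences that passed. None of 29 genes of retinoid transport, synthesis, breakdown and nuclear receptors passed, with a median of -0.05 and 8 at an unadjusted p under 0.05. Rxrg, the receptor's striatal relative, ran from 38.9 to 61.4 CPM in D1 and from 40.2 to 78.2 in D2 (0.46, adjusted p = 0.123). None of 94 potassium, 14 sodium and 26 calcium channel genes passed, with medians of -0.01, 0.31 and 0.09, which were -0.07, 0.06 and -0.08 without the 3 libraries of low scaling factor. Without D2 male 1, 8 sodium channel genes were higher in D2 and 2 in D1, 13 and 6 potassium channel genes, and 2 and 0 calcium channel genes, where 13% of all genes passed. Of 26 glutamate receptor genes 1 passed (Grik3), and of 19 GABA-A receptor genes 0. None of 14 activity-induced genes and none of 7 patch markers passed. Without D2 male 1, 3 retinoid genes were higher in D2 and 2 in D1, 3 activity-induced genes were higher in D2 and no patch marker passed. Of the 15 neuropeptide genes only Penk and Pdyn passed over all 16 libraries. Without D2 male 1, 2 neuropeptide genes were higher in D2 and 2 in D1, and 4 glutamate and 3 GABA-A receptor genes were higher in D2. Among 8 other genes known from D1 neurons 2 passed (Sfxn1 and Isl1), and Slc35d3 had -1.05 with an adjusted p of 0.0763. Among 7 tested genes known from D2 neurons 5 passed (Ttc12, Gucy1a1, Sp9, Oprd1 and Grik3). These counts were 5 and 6 without D2 male 1, and 3 and 3 without the 3 libraries of low scaling factor. Over all genes the shares that passed were 0.0935% in the 16 libraries, 13% without D2 male 1 and 0.0917% without the 3. Both lists were chosen with earlier results of these data known, so their counts are no independent check. Sfxn1 and Ttc12 also lie in the stretches around Drd1 and Drd2.

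The comparison was repeated within each sex in a fit of 4 groups. In females 15 genes passed (0.036% of those tested), 7 higher in D2 (0.0168%) and 8 in D1 (0.0192%). In males 12 passed (0.0288%), 7 higher in D2 (0.0168%) and 5 in D1 (0.012%). Of these, 13 and 12 were among the 39, and 11 passed in females, in males and over both. These 11 were Gm18974, Sfxn1, E130119H09Rik, Gm48550, Gm34557, Gm4894, Ndnf, Ttc12, Adora2a, Ankk1 and Drd2. Pdyn passed in females (-2.01, adjusted p = 0.00131) and not in males (-1.24, adjusted p = 0.199). The difference between the sexes passed for 0 genes (0% of 41715) in edgeR, with 1434 at an unadjusted p under 0.05, and for 1 gene in DESeq2. Its smallest p belonged to Gm15726, which lies antisense to Mid1 on the X chromosome, with an adjusted p of 0.129. Without D1 male 3 it passed for 2 genes.

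Under the control vector the same comparison passed 198 of 42202 genes (0.469%), 73 higher in D2 (0.173%) and 125 in D1 (0.296%), in libraries of which none is shared with the RXRa comparison. All 39 genes had the same sign there and 35 of them passed, which is 89.7% of the RXRa calls and 17.7% of the EGFP calls. The 4 that did not pass under EGFP were Arpp19 (0.67, adjusted p = 0.0799), Hrh3 (0.52, adjusted p = 0.15), Cox11 (0.14, adjusted p = 0.568) and Thbd (-0.32, adjusted p = 0.202). Drd2 had 3.91 under RXRa and 3.48 under EGFP, and Penk 2.69 and 2.73. Drd1 had -1.37 and -2.02, and Tac1 -0.43 and -0.71. The fold change was further from 0 under RXRa for 31 of the 39, which were chosen by the RXRa test. Over 41178 genes tested under both vectors Pearson's r of the fold changes was 0.44, across genes, which are not independent replicates.

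**Figure D5:**
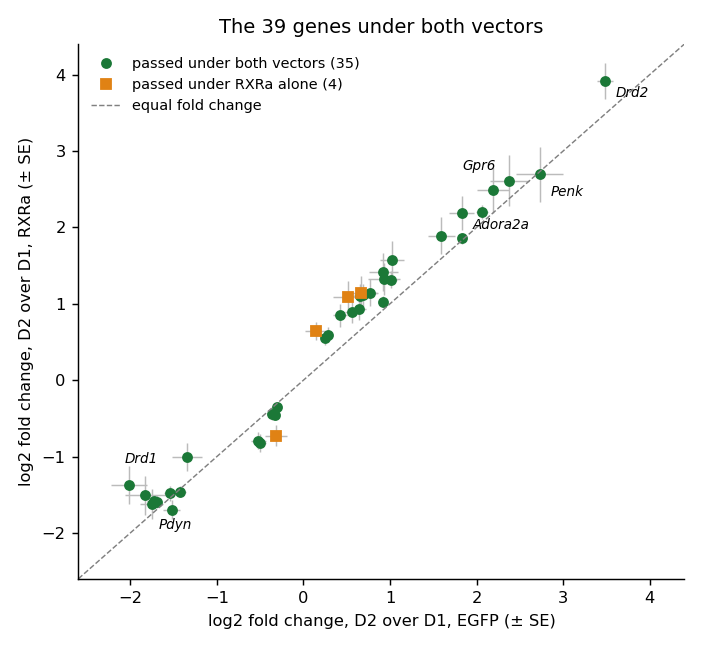
Log2 fold change of D2 over D1 with SE under RXRa (vertical) and under EGFP (horizontal) for the 39 genes that passed under RXRa, with squares for the 4 that did not pass under EGFP and a dashed line of equality. All 39 have the same sign under both vectors, and Drd1 lies nearer 0 under RXRa than under EGFP.

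The difference between the vectors itself, fitted over all 35 libraries, passed for 0 of 43902 genes (0%) in edgeR, with 3609 at an unadjusted p under 0.05. Leaving out any 1 of the 35 libraries also gave 0, and DESeq2 gave 0. The 39 genes were chosen by the RXRa test, whose libraries also enter this difference, and that choice favours larger fold changes under RXRa. Of these 39, against 3609 of all 43902 genes, 11 had an unadjusted p under 0.05 for the difference. All 11 had the larger fold change under RXRa, and their adjusted p values were 0.601. The smallest of the 11 was that of Grik3, at 0.55 under RXRa and 0.25 under EGFP (unadjusted p = 0.00384, edgeR). The smallest p of all genes belonged to Gm24079. For Drd1 the difference had an unadjusted p of 0.0726 and for Drd2 of 0.0657 (edgeR).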

How the data were processed

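The table deposited by the authors holds raw counts for each gene, and 2 more lines count vector sequences. Per the labels, ribosomal RNA was depleted, libraries were made with a stranded low-input kit for total RNA (SMARTer Pico) and pairs of 150 bp were sequenced to a stated minimum of 40 M reads. The submitters' processing notes name GRCm38, FastQC, Trimmomatic, HISAT2, Picard, featureCounts and Subread. Their versions, order and settings, and the use of strand and of intron reads, are not given in the sources used here. Total RNA of nuclei holds unspliced transcripts, so long genes can gain counts from introns.

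From the counts, genes were kept with filterByExpr by group, scaled by TMM and tested with edgeR 4.0.16 in R 4.3.3 (quasi-likelihood, sex as a block, Benjamini-Hochberg adjustment over all genes tested). Standard errors come from the fold change and the F statistic. Vector counts entered neither library sizes nor the gene tests, and were compared by exact permutation of population labels within sex (4900 arrangements, smallest p 0.000408, Python 3.11.15). The background measure is the median CPM per kb over 1576 protein-coding genes with no count in bulk tissue. On counts simulated for this comparison over 41105 genes, the test called 95 of 100 genes changed by a log2 of 1 and 100 of 100 changed by 2, with 10 false calls. The simulated counts had no sex effect and no variation shared by the genes of a library, and only well-counted genes were changed. These rates may therefore not hold for the real libraries. Symbols and positions come from GENCODE M21, which held 55394 of the 55487 identifiers. Between replicates of a group, chi-square divided by its degrees of freedom was 3.772 to 30.58, so no pair agreed within sampling noise.

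Alternatives were RLE scaling and library totals, DESeq2 1.42.0, 2 other filters, the background as a covariate, limma 3.58.1 voom, a robust fit, 1 surrogate variable (sva 3.50.0), all 35 sorted libraries, replicate blocks and each library left out. Leaving out the 3 libraries of low scaling factor was chosen after seeing the data. The genes named are the markers, Rxra, the called genes with a mean of at least 1 CPM whose groups did not overlap within sex (up to 12 coding and 3 noncoding each way), up to 4 called members of each list and the smallest p where none was called. Other called genes, neighbours and list members that the text names were added after their values were seen. The genes and lists were chosen with earlier results of these data known.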

Additional observations from a re-analysis of the deposited data

Results flagged for a closer look

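In 6 of 172 groups of 4 libraries one library stood far from the other 3, where chance gives about 1 group in 20. Drd2 was at 102.2 CPM in D1 male 1, against 68.18 in the next library. Pdyn was at 62.67 CPM and Tac1 at 56.35 in D1 female 1, against 43.41 and 42.23. Gm48550 was at 4.393 CPM in D2 female 2, against 5.627. Lingo2 was at 540.8 CPM and Sntg2 at 119.8 in D2 female 5, against 689.5 and 130 in the nearest library. In the fits without the library concerned, each of these genes stayed on its side of the threshold. The D2 female library that was left out held 2941 counts of vector RXRa, where the 19 EGFP libraries held at most 17.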

How the results depend on the processing

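No gene among the 39 changed direction under any alternative, and 27 kept their call in all 16 fits that left out 1 library. The count of 39 became 72 with library totals, 1056 with DESeq2, 79 with the background as a covariate, 3671 with all 35 sorted libraries in 1 fit and 68 with 1 surrogate variable. It ranged from 29 without D1 male 5 to 5504 without D2 male 1. Females went from 15 to 27 with library totals and 41 with DESeq2, and ranged from 13 to 27 over left-out libraries, the highest without D2 male 1. Males went from 12 to 34 with library totals, where 16 were higher in D2 and 18 in D1, and to 36 with DESeq2. Over left-out libraries males ranged from 10 to 352, the highest again without D2 male 1. The sex difference was called for 1 gene with DESeq2 and for 0 to 2 over left-out libraries, 2 without D1 male 3. The EGFP count of 198 became 130 with library totals (71 higher in D2, 59 in D1), 945 with DESeq2, 346 at a mean of at least 1 CPM and 118 with the background as a covariate. It ranged from 81 without the EGFP library D2 female 3 to 826 without D2 female 1, and moved by over 1.5 times in 17 of 19 such fits, all but those without D1 female 2 and D1 female 5. The background difference, -0.0071, was 0.0095 over genes of at least 20 kb and ranged from -0.042 to 0.0234 over left-out libraries. The causes were not tested.

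With a replicate block the count was 11 over both sexes and 8 in females. Pairs with the same number had correlations of -0.614 to 0.177, 2 of 7 above 0.1, and 1 of 14 libraries correlated best with its own number. No pairing by number was visible. With so few libraries, this check cannot exclude a preparation or batch shared by libraries of the same number. In the 16 libraries 3 counts, the limit that a count of 0 leaves, equal 0.101 to 0.223 CPM (counting error only), and differences below that level could not be seen.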
